A study of Mus musculus with 7 samples.

Results

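RNA was measured in fetal muscle fibers for the genes that encode pore-forming and accessory subunits of potassium, sodium and chloride channels. These genes were taken from the table of normalized counts by symbol: potassium channel genes whose symbol is Kcn followed by 1 letter and a digit, together with Kcnma1 and the Kcnip genes, the sodium channel Scn alpha and beta genes, the Hcn genes and the Clcn genes. The pattern found 103 of the 31531 genes in the table, which are 102 channel subunits and Kcnq1ot1, a noncoding RNA read from the opposite strand of the potassium channel gene Kcnq1. The potassium channel beta subunits Kcnab and Kcnmb have symbols outside the pattern and are described with the partner proteins. Of the 103 genes, 98 had a mean normalized count of at least 5 over the 7 libraries and could be tested. The others, such as Kcnc4, Kcng2, Kcng3 and Kcnj13, had lower means.

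The libraries came from 7 C57BL/6 fetuses at embryonic day 17.5, 4 labelled WT and 3 labelled dyW, with 1 library per fetus and no treatment. Heterozygous dyW mice were crossed to obtain homozygous dyW and WT fetuses, and the labels themselves do not state homozygosity. The dyW allele disrupts Lama2, the gene of the laminin alpha 2 chain, in every cell, and dyW mice serve as a model of LAMA2 congenital muscular dystrophy. Fibers were freed from the epaxial muscles of the back with dispase II and collagenase A and kept on a strainer, so other cells attached to the fibers entered the lysate. Full-length cDNA was made with SMART-seq2, which amplifies the cDNA by PCR without molecular identifiers, and any interval or limit from counts covers counting error only.

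Each deposited value is a read count scaled by the size factor of its library, so that 1 read is worth 2.05 to 5.33 normalized counts in WT but 0.0974 to 0.488 in dyW. The reads on genes ranged from 470804 to 2220813 in WT and from 3663905 to 18297106 in dyW, so that every WT library was shallower than every dyW library. Lama2 was at 90.6, 111, 105 and 107 normalized counts in WT1 to WT4, at 4.29 in dyW1 and 6.07 in dyW2, and at 139.7 in the library labelled dyW3. That last value lies above every WT library and goes against the label, so the genotype of this library is uncertain, and every dyW mean and call includes it unless it is said to be left out. The 10 myofiber markers summed to between 2356 and 69676 normalized counts in WT and to 26.1, 7893 and 4644 in dyW1, dyW2 and the library labelled dyW3, with Tnnc2 and Atp2a1 at 0 in dyW1. Myh3, Myh8 and Ckm also had no read in dyW1, so that 5 of the 10 defining markers of the labelled fibers were at 0 in that library. The 6 fibroblast markers summed to between 4116 and 12484 in WT and between 20348 and 28134 in dyW. Fewer fibers and less RNA of a channel per fiber cannot be told apart in such lysates.

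Channel proteins set the excitability of the muscle fiber membrane. The sodium channel Nav1.4, encoded by Scn4a, opens during the upstroke of the action potential that spreads from the neuromuscular junction over the surface and into the transverse tubules. The chloride channel ClC-1, encoded by Clcn1, and the inward rectifier Kir2.1, encoded by Kcnj2, hold and restore the resting potential, and loss of ClC-1 function gives myotonia. Voltage-gated potassium channels repolarize the membrane, K2P channels carry leak currents, and calcium-activated channels open when calcium rises in the cell. Many of the other subunits are best known from neurons or the heart, and Clcn3 to Clcn7 encode CLC proteins of endosomes and lysosomes that exchange chloride for protons.

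A comparison of WT with dyW asked whether the channel genes differ between the genotypes before birth. Values were compared on log2(normalized count + 1) with limma over 25791 genes, with Benjamini-Hochberg adjustment over all of them. A gene is termed called when its adjusted P was under 0.01 and its log2 fold change was over 1.5 in either direction. A log2 fold change is the dyW mean minus the WT mean on this scale, and it understates the difference of genes with low counts. As a background level, the median normalized count per kb of exon of 1206 odorant and vomeronasal receptor genes was used, termed the receptor level. These receptors serve the sense of smell and are not known as channels of muscle, and their level was 3.37, 6.69, 3.62 and 5.81 in WT1 to WT4, 0 in dyW1 and dyW2 and 0.525 in the library labelled dyW3. Their mean per kb was 3.97 to 7.48 in WT, 0.197 in dyW1 and 0.0236 in dyW2, but 7.06 in the library labelled dyW3, within the WT range.

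The 3 skeletal muscle channels were lower in every dyW library than in any WT library, a pattern that 31.5% of all tested genes also showed. Scn4a spans chr11:106208370-106256385 on the minus strand of GRCm39, and it had 37.3, 89.0, 26.7 and 81.8 normalized counts in WT1 to WT4, against 1.56 in dyW1, 0.506 in dyW2 and 16.6 in the library labelled dyW3. WT averaged 58.7 ± 31.3 normalized counts (SD, n = 4), and dyW averaged 6.22 ± 9.01 (SD, n = 3). The groups did not overlap, although most of the dyW signal came from 34 reads in 1 library. The log2 fold change of Scn4a was -3.70 (SE 0.98), and with a limma adjusted P of 0.0193 it was not called. Without the library labelled dyW3 it was -4.76 with a limma adjusted P of 0.00245, in a range over all alternatives from 0.00245 to 0.595.

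Clcn1 (chr6:42263595-42292718, plus strand) had 16.0, 67.4, 24.6 and 34.6 normalized counts in WT1 to WT4. In dyW1 and the library labelled dyW3 it had no read, and in dyW2 it had 2 reads, or 0.253 normalized counts. The means were 35.7 ± 22.5 (SD, n = 4) and 0.0843 ± 0.146 (SD, n = 3), and every WT library was far above the 3 others. It was the only 1 of the 3 muscle channels that was called, where 18.7% of all tested genes were called lower, with a log2 fold change of -4.90 (SE 0.74) and a limma adjusted P of 0.00372. Over the alternatives its adjusted P ranged from 0.000755 to 0.446.

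Kcnj2 (chr11:110956981-110967665, plus strand) had 10.7, 24.3, 10.3 and 37.8 normalized counts in WT1 to WT4 and 6.33 in dyW1, from 65 reads, with no read in dyW2 and the library labelled dyW3. The groups did not overlap, but the highest dyW library lay close to the lowest WT library. The log2 fold change was -3.29 (SE 0.95) with a limma adjusted P of 0.0285, which missed the threshold. By the exact two-sided permutation test, each of the 3 channels had P = 0.0571, the smallest value that 4 against 3 libraries allow.

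**Figure D1:**
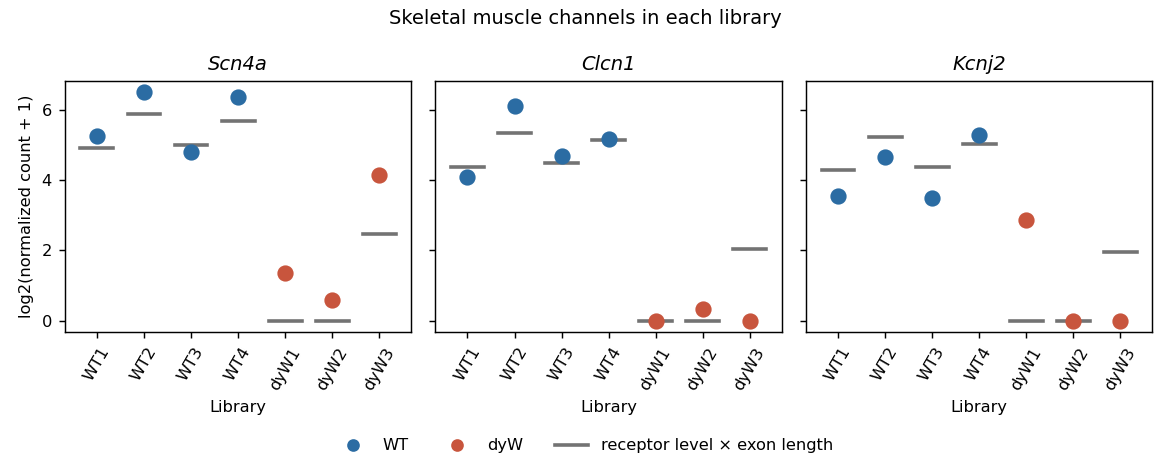
Normalized counts of Scn4a, Clcn1 and Kcnj2 in each of the 7 libraries, as log2(normalized count + 1) on the vertical axis (points, blue WT, red dyW). Grey bars give the receptor level of the library times the exon length of the gene, and most WT points lie near their bar, while the dyW points lie below every WT point.

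In WT the 3 muscle channels were close to the receptor level. The ratio of the WT level per kb to the receptor level averaged 1.33 for Scn4a (0.857 to 1.64 in the 4 libraries), 1.17 for Clcn1 (0.805 to 1.71) and 0.737 for Kcnj2 (0.518 to 1.19). These values rest on 79, 51 and 28 reads over the 4 WT libraries. When the receptor level times exon length was subtracted from each library, the log2 fold change was -1.43 for Scn4a, -1.73 for Clcn1 and 0.26 for Kcnj2, and none of the 3 was called, with limma adjusted P from 0.446 to 0.921. That level was 0 in dyW1 and dyW2, so the subtraction lowered mainly WT values and cannot decide whether these channels differ. Whether the WT values of these channels come from fiber transcripts or from the same source as the receptor reads was not tested.

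The bases upstream of the annotated starts are shown for Clcn1 and Kcnj2 because they are the stretches in which binding sites of muscle regulators could lie. Both windows hold the 250 bases before the canonical start in GENCODE release 39 on GRCm39, in lower case, with matches to the MEF2 site (a motif of the MEF2 factors, which act in muscle and neurons) or to the E box CAGCTG (bound by myogenic factors such as MyoD) in capitals. Both strands were searched. The Kcnj2 window overlaps an exon of the antisense noncoding gene Gm57334, and the window of Scn4a overlaps exons of other Scn4a transcripts and is not printed.
Clcn1, chr6:42263345-42263594, plus strand: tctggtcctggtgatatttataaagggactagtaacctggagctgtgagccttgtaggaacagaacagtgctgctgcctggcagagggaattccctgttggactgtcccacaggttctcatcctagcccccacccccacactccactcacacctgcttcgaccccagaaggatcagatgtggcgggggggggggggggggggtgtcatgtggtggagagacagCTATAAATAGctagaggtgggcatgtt
Kcnj2, chr11:110956731-110956980, plus strand: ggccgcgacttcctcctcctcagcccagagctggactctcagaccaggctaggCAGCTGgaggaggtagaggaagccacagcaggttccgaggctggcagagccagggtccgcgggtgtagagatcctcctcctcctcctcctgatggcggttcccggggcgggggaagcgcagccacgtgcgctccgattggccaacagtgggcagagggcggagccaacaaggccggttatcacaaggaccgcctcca
In the Clcn1 window the letters that match the MEF2 motif begin 27 bases before the start, and in the Kcnj2 window those that match the E box begin 197 bases before it. The Scn4a window holds neither motif. Of 21770 protein-coding genes, 11.9% have this E box and 2.79% a MEF2 site in the same window, against 15 of 102 channel subunits (14.7%) and 4 (3.92%), respectively. A match is a run of letters that other promoter elements can share, and binding was not tested.

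Of 13 other channels known from skeletal muscle, 12 were tested and 4 were called lower, where 18.7% of all tested genes were, among them Kcnh1, Kcna7 and Kcnq5. Kcnh1, the voltage-gated channel EAG1 that is linked to myoblast fusion, had 32.0, 43.1, 22.6 and 25.2 normalized counts in WT and no read in dyW. All 4 WT libraries were thus at similar levels, and with 3 reads per dyW library as the limit for a count of 0 it was at least 43.1-fold lower in dyW, a bound that covers counting error in dyW only. Kcna7, a voltage-gated potassium channel of muscle and heart, also had no dyW read, against 16.0, 13.5, 6.15 and 31.5 normalized counts in WT, and was at least 23.6-fold lower by the same bound. In WT the levels per kb of Kcnh1 and Kcna7 averaged 0.867 and 0.853 times the receptor level, which these bounds do not take into account. Kcnq5, which carries a slow potassium current, had 37.3, 45.8, 18.5 and 37.8 normalized counts in WT and 7.21, 0 and 0 in dyW (limma adjusted P = 0.00986), just inside the threshold, and it lost the call in 13 of 15 alternatives.

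Other genes of this list did not pass. Kcnj12, the inward rectifier Kir2.2, had no dyW read and a log2 fold change of -3.29 (limma adjusted P = 0.0173), but its WT counts of 5.33, 27.0, 2.05 and 15.7 rested on 17 reads. Kcnn3, the small-conductance channel SK3 that denervated fibers make, was at 21.3, 43.1, 24.6 and 22.0 in WT and at 5.26, 0.126 and 7.81 in dyW, so the groups did not overlap (limma adjusted P = 0.0390). Kcnc4 had too low a mean to be tested, although its WT values of 5.33 to 16.2 lay above its dyW values of 0 to 0.977. For Kcnj11, the pore of the ATP-sensitive channel, the library labelled dyW3 held 43 reads or 21.0 normalized counts, within the WT range of 10.3 to 25.2, and dyW1 and dyW2 held none. Its log2 fold change of -2.71 (limma adjusted P = 0.103) became -4.20 without that library (limma adjusted P = 0.00262, in a range over all alternatives from 0.00262 to 0.925).

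Kcnma1, Kcne3 and Kcnc1 overlapped between the groups. Kcnma1, the large-conductance calcium-activated channel, was at 26.7, 94.4, 47.2 and 72.4 in WT and at 150, 0.126 and 57.6 in dyW, so that dyW1, with 1536 reads, was the highest and dyW2, with 1 read, the lowest of all 7. Kcne3, an accessory subunit known as a partner of the Kcnc4 channel in muscle, was at 5.33 to 18.9 in WT and at 2.83, 62.0 and 0.488 in dyW. The neuronal channel Kcnc1 was at 0 to 40.9 in WT and at 6.35 in the library labelled dyW3 only. Without that library the log2 fold change of Kcnc1 went from -2.22 to -3.18 (limma adjusted P = 0.106, range over all alternatives 0.0750 to 0.856). With all libraries, the 3 genes had limma adjusted P from 0.239 to 0.568.

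Among all subunits, lower values in dyW prevailed at this scaling. Of the 97 tested subunits, 33 (34.0%) were called lower and 0 higher, where 18.7% of all 25791 tested genes were called lower and 0.0659% higher. Genes entered by their mean over all 7 libraries, and 1 read weighs more in WT, so genes with few reads mostly passed through WT. Such genes could hardly be tested unless they were higher in WT, and the shares below carry this limit. With no filter, 31 of 103 members and 15.2% of all genes were called lower. At an unadjusted P under 0.05 limma gave 69 lower members and 0 higher, where 41.5% of all tested genes were lower and 2.81% higher, and voom on the recovered reads also called 0 higher. With an adjusted P under 0.05, 51 members were lower against 29.6% of all tested genes. Every dyW library was below every WT library for 52 tested subunits, against 31.5% of all tested genes, and above every WT library for 0, against 3.28%. The median log2 fold change of the tested subunits was -3.28, where that of all tested genes was -1.99, and 92 values were negative and 5 positive. Set against the 3 muscle channels, with 1 called, 3 without overlap and a median of -3.70, the other 94 tested subunits had 32 called, 49 without overlap and a median of -3.26. With the 19 tested subunits without any dyW read set to their bound, the median was -3.33. The medians depended on the scaling. That of all tested genes was -1.24 when all libraries had the same total and -0.15 after quantile normalization. That of the subunits was then -2.71 and -0.89, with 6 and 14 positive values.

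The calls did not hold under several settings. No member was called with a pseudocount of 10, a mean of at least 50 (12 members tested), quantile normalization, the same total, or subtraction of the receptor level, with limma each time. The median of the subunits was 0.00 after the subtraction, with 45 values negative and 45 positive. The level taken off was 3.37 to 6.69 per kb in WT, 0 in dyW1 and dyW2 and 0.525 in the library labelled dyW3. Results below 0 were set to 0. The subtraction thus lowered mainly WT values, and the calls lost by it cannot decide whether the channels differ. Without WT2, WT4 or dyW2 also no member was called, with lowest limma adjusted P of 0.0127, 0.0121 and 0.0141, while 34, 33 and 42 members and 22.2%, 22.1% and 24.0% of all tested genes were lower at an adjusted P under 0.05. Over all tested genes 0% were called lower in each of these settings, except for 0.00775% after quantile normalization, so that the calls were lost throughout the table. Without dyW1, 20 members and 7.76% of all tested genes were called lower, and without the library labelled dyW3, 48 members and 25.8%.

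**Figure D2:**
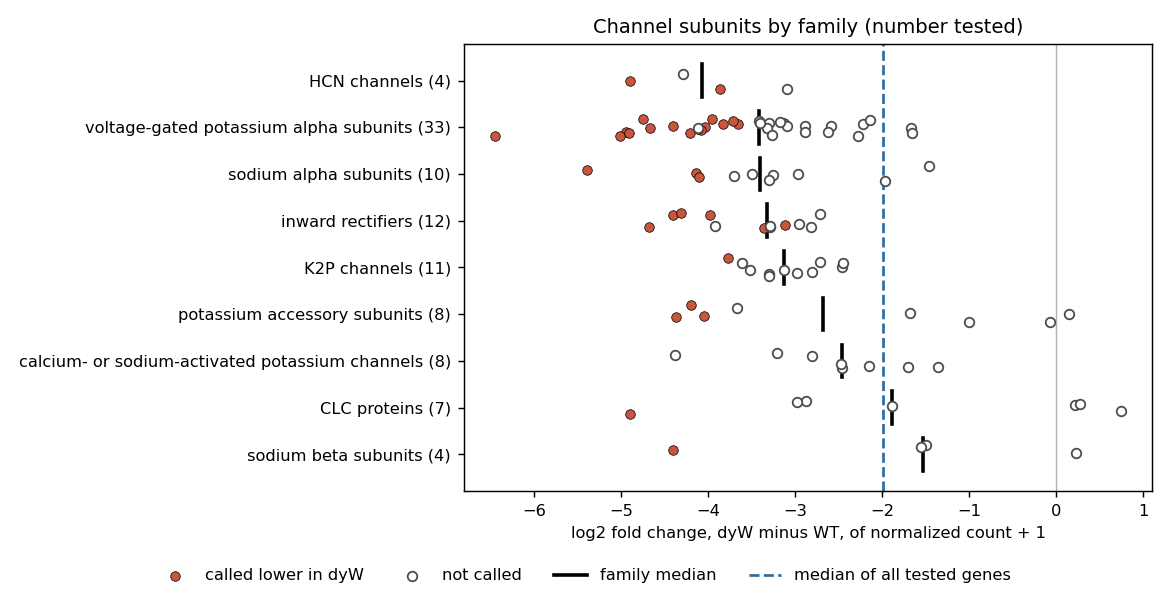
Log2 fold change (dyW minus WT, horizontal axis) of the 97 tested channel subunits by family, with red points called lower and open points not called. Black bars are family medians and the dashed line is the median of all tested genes at -1.99. The HCN family has the lowest median, -4.08, and the sodium beta subunits and the CLC proteins have medians to the right of the line.

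Most family medians lay below that of all tested genes, -1.99, and counts called are to be read against the 18.7% of all tested genes called lower. The voltage-gated potassium alpha subunits, the largest family, had 16 of 33 called lower with a median log2 fold change of -3.42, and 14 of its 37 members had no read in any dyW library. Of the inward rectifiers, 6 of 12 were called lower (median -3.32), and of the HCN channels, which pace heart and neurons, 2 of 4 (median -4.08). The sodium alpha subunits had 3 of 10 called lower (median -3.40) and the potassium accessory subunits 3 of 8 (median -2.68). The K2P leak channels had 1 of 11 called lower, with a median of -3.13, and 8 of the 11 had reads in dyW1. Calcium- and sodium-activated potassium channels had 0 of 8 called by limma, with 2 lower at an adjusted P under 0.05, where 29.6% of all tested genes were, and a median of -2.47. The sodium beta subunits (1 of 4, median -1.53) and the CLC proteins (1 of 7, median -1.89) were above the median of all genes. This did not hold without WT1, where they were -2.08 and -2.12 and that of all tested genes was -1.95. The CLC median was also below that of all genes with no filter (-1.89 against -1.76), after quantile normalization (-0.99), with a pseudocount of 10 (-1.26) and without WT2 (-2.03). Without dyW2 the sodium beta and CLC medians were -0.80 and -1.15. The median of the sodium alpha subunits was -4.60 without the library labelled dyW3, and that of the accessory subunits was -1.99 without dyW1 and -3.39 without dyW2. All 9 family medians were negative with the deposited scaling and with the same total, whereas after quantile normalization that of the sodium beta subunits was 0.59, and after subtraction of the receptor level those of the sodium beta subunits, the CLC proteins and the calcium- and sodium-activated channels were 1.08, 0.94 and 1.78.

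Of 27 tested channels best known from neurons, 13 were called lower, against 18.7% of all tested genes, with a median log2 fold change of -3.83, next to 1 of 3 for the skeletal muscle channels with a median of -3.70. A list of 8 neuron markers stood beside them with 3 called lower, 6 lower at an adjusted P under 0.05, where 29.6% of all tested genes were, and a median of -3.60, and summed to between 125 and 307 normalized counts in WT and to 32.1, 15.6 and 142 in dyW1, dyW2 and the library labelled dyW3. Snap25 and Nefl, which nerve endings and axons need, had no read in any dyW library and 20.5 to 50.3 and 8.21 to 18.9 normalized counts in WT, and the third called marker was Rbfox3. In WT the 8 neuron markers averaged between 0.442 and 1.36 times the receptor level. Their part in the channel result was not tested.

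The 8 called subunits with the most negative log2 fold changes included Kcnh4, Kcnh1, Kcns1, Clcn1 and Kcnv2. Kcnh4, of the ELK branch of voltage-gated channels, was at 64.0, 32.4, 10.3 and 44.1 in WT and had no read in dyW, and was at least 52.9-fold lower. Kcns1 and Kcnv2 encode silent subunits that form channels only together with others, and both had no read in dyW. They were at 8.21 to 47.2 and at 16.0 to 59.3 normalized counts in WT, and so at least 48.6-fold and 42.1-fold lower. These folds are ratios to a mean of 0.712 normalized counts, the value of 3 reads in each dyW library, and without the library labelled dyW3 that mean is 0.336 and the bounds are 112 for Kcnh4, 103 for Kcns1, 91.5 for Kcnh1, 89.4 for Kcnv2 and 49.9 for Kcna7. They set no limit once the receptor level is taken off, after which none of these genes was called.

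Of the CLC proteins of endosomes and lysosomes, Clcn3, Clcn4 and Clcn5 had many reads in the dyW libraries. Clcn3 was at 80.0, 99.8, 71.8 and 132 normalized counts in WT and at 112, 41.7 and 271 in dyW. Clcn4 was at 80.0, 72.8, 80.0 and 94.4 in WT and at 226, 205 and 20.0 in dyW. Clcn5, which acts in endosomes and is known from the kidney, was at 112, 78.2, 67.7 and 72.4 in WT and at 28.6, 240 and 362 in dyW. In each of these 3 genes 1 or 2 dyW libraries lay above every WT library and another lay below every WT library, so that the spread among dyW libraries exceeded the difference. Their log2 fold changes were 0.22 (SE 0.71), 0.27 (SE 0.87) and 0.74 (SE 0.87) with limma adjusted P of 0.838, 0.834 and 0.542, where those of Clcn3 and Clcn4 turned negative after quantile normalization. Without the library labelled dyW3 they were -0.44, 1.39 and 0.04, none of them called. Each of the 3 had between 2037 and 3984 dyW reads in all, against 106 to 129 in WT.

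Clcn7, which works with Ostm1 in lysosomes and in bone resorption, was at 42.6, 51.2, 86.2 and 120 in WT and at 6.53, 5.82 and 130 in dyW, so that dyW1 and dyW2 lay below every WT library and the library labelled dyW3 above every WT library. Its log2 fold change was -1.89 (SE 1.08, limma adjusted P = 0.213), and -3.29 without that library (limma adjusted P = 0.00577, in a range over all alternatives from 0.00577 to 0.637). Clcn6 was at 42.6, 45.8, 34.9 and 37.8 in WT and at 10.8, 6.96 and 0.488 in dyW, with no overlap (log2 fold change -2.98, SE 0.84, limma adjusted P = 0.0252). None of the 5 exchangers was called by limma, 1, Clcn6, was lower at an adjusted P under 0.05, and 4 overlapped between the groups, where 18.7% of all tested genes were called lower, 29.6% were lower at an adjusted P under 0.05 and 31.5% had every dyW library below WT. Among genes with a mean of at least 50 the median was 0.24 over 4 exchangers and 0.20 over all genes. The median log2 fold change of the 5 was 0.22, and its sign was not stable: it was -0.22 after quantile normalization, -0.33 without dyW1, -0.25 without dyW2 and -0.44 without the library labelled dyW3, but 1.36 with the same total, 1.20 with voom and 2.75 after receptor subtraction.

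Because no member was called higher, the other members with the most positive log2 fold changes are described without a call. They were Scn3b at 0.23, Kcne1l at 0.14, Kcnip4 at -0.08, Kcnq1ot1 at -0.22 and Kcne3 at -1.0, and all overlapped between the groups. Scn3b, a sodium channel beta subunit, was at 5.33 to 34.6 in WT and at 7.89, 20.9 and 45.4 in dyW. Kcne1l, which the annotation names Kcne5, was at 10.7, 13.5, 18.5 and 6.29 in WT and at 0, 43.8 and 56.6 in dyW, above every WT library in 2 of 3. Without the library labelled dyW3 the log2 fold changes of Scn3b and Kcne1l were -0.35 and -0.90, neither of them called. Kcnip4, an accessory subunit of Kv4 channels, was at 0 to 15.7 in WT and at 21.7, 7.46 and 0.488 in dyW.

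Kcnq1ot1 is the noncoding RNA of the pattern, an imprinted transcript that silences neighbouring genes on the paternal chromosome. It lies at chr7:142731402-142850327 on the minus strand, where Kcnq1 overlaps it on the other strand, and reads of the pair cannot be told apart because the strand setting of the counting is not given in the sources used here. Its normalized count was 2303, 871, 503 and 935 in WT1 to WT4 and 1156, 566 and 923 in dyW. The means of 1153 ± 790 (SD, n = 4) and 881 ± 297 (SD, n = 3) differed by less than the spread within WT (log2 fold change -0.22, SE 0.57, limma adjusted P = 0.79). It held 1297 WT reads and 18225 dyW reads, and the counts assigned to Kcnq1 were 5.33 to 28.3 in WT and 0 in dyW. How the reads of the locus were divided between the pair is not known, and no fold is given for Kcnq1, although its assigned counts were called lower. Other members also have exons that overlap a gene on the other strand, such as Clcn1 with Fam131b, Kcnj2 with Gm57334 and Hcn3 with Pklr.

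**Figure D3:**
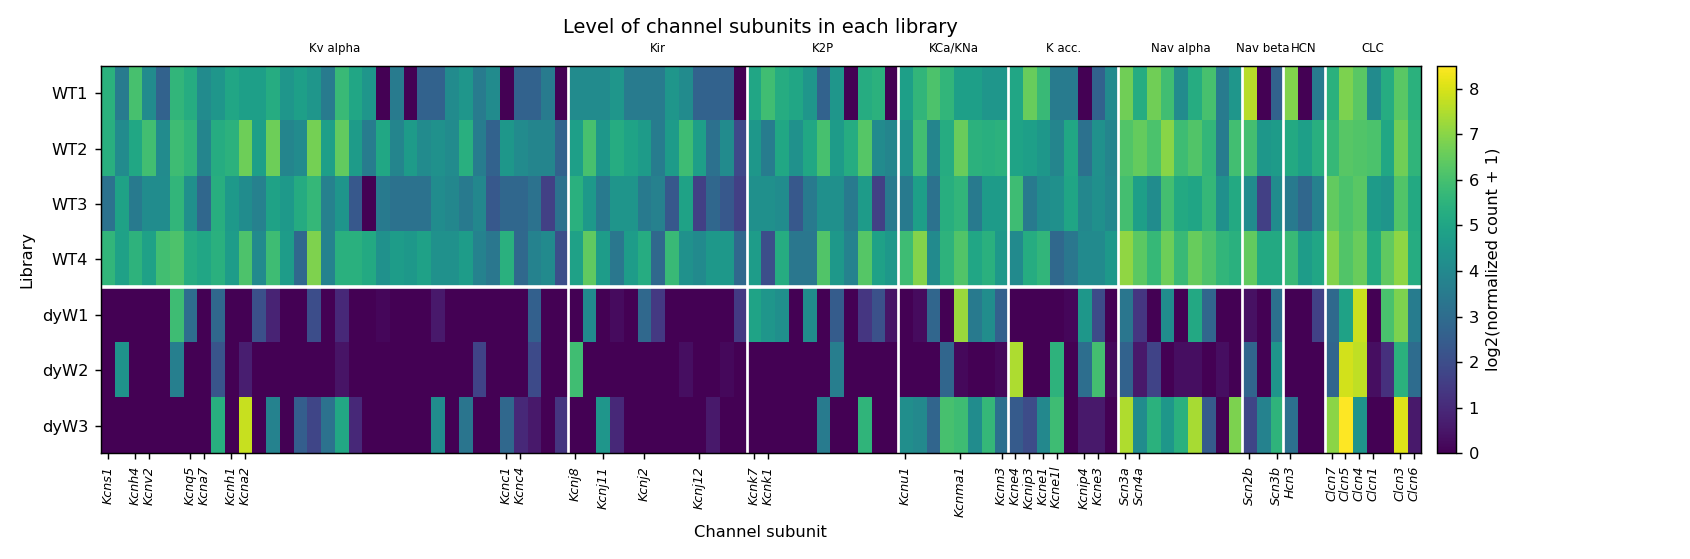
Level of 96 channel subunits (columns, by family and falling WT level per kb, with some of the names below) in each library (horizontal bands, WT above the white line, dyW below) as log2(normalized count + 1) in color. The WT bands are filled nearly throughout, while the dyW bands hold bright cells scattered over single libraries, such as Kcna2 in the library labelled dyW3 and Kcne4 in dyW2.

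In dyW the reads of a subunit mostly sat in 1 library. Over the 82 subunits with a dyW read, the library with the most held a median of 100% of the dyW normalized count, against 81.6% over all tested genes with a dyW read, and in WT the corresponding medians were 41.6% and 41.2%. The 82 include subunits too low to be tested. A gene with 1 dyW read, such as Kcnip1, has a share of 100% in any case, and WT shares are over 4 libraries. These medians are therefore not a measure apart from the number of reads. In 9 subunits 1 dyW library held at least 100 reads while the others held at most 3 each. This is 8.82% of the subunits, near the 8.17% of all tested genes. Kcnj8, the Kir6.1 pore of vascular ATP-sensitive channels, had 464 reads in dyW2 and none in dyW1 and the library labelled dyW3. Scn9a, Nav1.7 of sensory neurons, had 230 reads in the library labelled dyW3 only, and without it the log2 fold change went from -2.96 (limma adjusted P = 0.182) to -5.24 (limma adjusted P = 0.00180, range over all alternatives 0.00180 to 0.800). Kcnk1, Kcnk5, Kcnk6, Kcnk7 and Kcnj15 had 163 to 306 reads in dyW1 only. Kcna5 had 157 reads in dyW2 only.

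Some subunits with reads in several dyW libraries were also led by 1. Kcna2 was at 220 normalized counts in the library labelled dyW3, from 450 reads, above its WT range of 16.4 to 97.1, and at 0 and 0.632 in the others. Its log2 fold change of -2.58 (limma adjusted P = 0.288) was -5.06 without that library (limma adjusted P = 0.00291, range over all alternatives 0.00291 to 0.775). Kcne4, which dampens Kv channels and is known from smooth muscle, was at 173 in dyW2, from 1370 reads, against 15.7 to 57.4 in WT and 0 and 4.40 in the other dyW libraries. Scn3a, a sodium channel of embryonic neurons, was at 101, 72.8, 61.5 and 135 in WT and at 9.16, 5.44 and 180 in dyW. Without the library labelled dyW3 the log2 fold change of Scn3a moved from -1.97 to -3.47, with a limma adjusted P of 0.00412 (range over all alternatives 0.00412 to 0.882). In 15 subunits 1 dyW library lay above every WT library, in 3 subunits (Clcn4, Clcn5 and Kcne1l) 2 did, and in 84 none did. Among the 97 tested subunits these were 15.5%, 3.09% and 81.4%, where 26.2%, 8.47% and 62.0% of all tested genes had 1, 2 and no such library.

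Several subunits had a higher mean level per kb of exon in WT than the muscle channels. Scn2b, a sodium channel beta subunit of neurons, led with a mean of 19.2 normalized counts per kb, followed by Kcnk7 with 15.5, Clcn7 with 13.6, Kcne4 with 12.7, Kcns1 with 11.1, Hcn3 with 10.9 and Kcnip3 with 10.2. Next came Kcne1 with 9.14, Kcnk1 with 8.99 and Kcne1l with 7.92, ahead of the muscle channels Scn4a with 6.82, Clcn1 with 6.04 and Kcnj2 with 3.79. The place of Scn2b rested in part on WT1, the library with the fewest reads, where it was at 192 normalized counts against 62.0, 16.4 and 88.1 in WT2 to WT4. Without WT1 the means per kb were 11.9 for Scn2b, 6.65 for Hcn3, 6.15 for Kcnip3 and 4.27 for Kcnk1. Scn4a was then at 7.65 and Clcn1 at 7.16, so that Scn4a came before Hcn3, Kcnip3, Kcne1, Kcnk1 and Scn3a (6.71), and the order of these genes rests on that library. Scn2b was called lower (0.292, 5.82 and 2.44 in dyW, limma adjusted P = 0.00914), as were Kcnip3 (limma adjusted P = 0.00763) and Kcns1, and the calls of Scn2b and Kcnip3 were lost in 14 of 16 and 12 of 15 alternatives. Hcn3, Kcne1, Kcnk7, Kcnk1 and Kcne4 were not called. Kcnu1, a sperm potassium channel, led the calcium- and sodium-activated family with 7.52 per kb, and Kcnj8 with 7.45 and Scn3a with 6.92 led their families, where without WT1 Kcnj15 (8.83) came before Kcnj8 (8.52) and Scn4a before Scn3a.

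Hcn3 was at 117, 35.1, 10.3 and 53.5 normalized counts in WT and at 7.81 in the library labelled dyW3 alone, with a limma adjusted P of 0.017. Kcne1, which slows Kcnq1 channels, was at 16.4 to 53.3 in WT and at 14.7 in the library labelled dyW3 alone (limma adjusted P = 0.0331). Kcnu1 was at 10.3 to 56.6 in WT and at 17.6 there (limma adjusted P = 0.0665). In all 3 genes the only dyW reads came from the library in which Lama2 was not low, and without it their log2 fold changes were -5.33, -4.99 and -4.61 with limma adjusted P from 0.00208 to 0.00342. Over all alternatives, the adjusted P of the 3 genes ranged from 0.00208 to 0.804.

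WT levels of the subunits were near the receptor level, and reads correlated positively with exon length in all 7 libraries, weakly in dyW2. The number of reads of the 102 subunits and their exon length had a Spearman correlation of 0.34, 0.59, 0.44 and 0.55 in WT1 to WT4 and of 0.26, 0.18 and 0.44 in dyW1, dyW2 and the library labelled dyW3, as a description over genes of the same library. The median ratio of a subunit's reads per kb to the receptor level was 0.871, 0.757, 0.707 and 0.820 in the 4 WT libraries, and 93 of the 102 subunits averaged under 2 times that level. All 102 subunits together held 565, 1462, 1050 and 1322 WT reads, and 10056, 7483 and 4490 dyW reads. As a share of the reads on genes these were 0.0473% to 0.120% in WT and 0.0409% to 0.123% in dyW, so the summed share did not separate the groups.

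**Figure D4:**
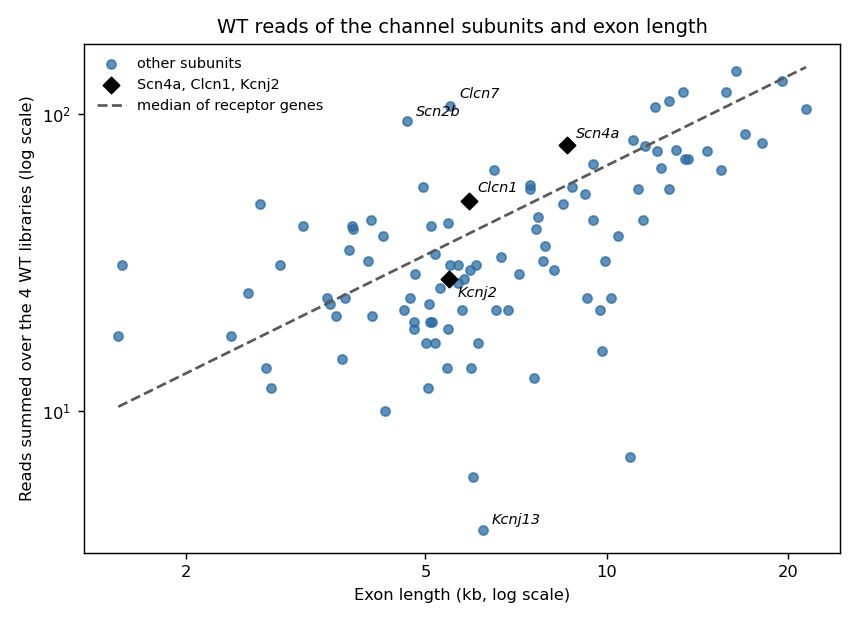
Reads of each of the 102 channel subunits summed over the 4 WT libraries (vertical, log scale) against exon length in kb (horizontal, log scale), with Scn4a, Clcn1 and Kcnj2 as black diamonds. The dashed line is the median of the receptor genes, and the subunits scatter on both sides of it, with Scn2b and Clcn7 above and Kcnj13 far below.

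The number of subunits with at least 1 read was 91, 102, 101 and 101 in WT1 to WT4 and 52, 36 and 51 in dyW1, dyW2 and the library labelled dyW3. The means were 98.8 ± 5.19 (SD, n = 4) and 46.3 ± 8.96 (SD, n = 3), a difference of 52.4 subunits with no overlap (P = 0.0571 by the exact permutation test, two-sided, which is the lowest that 4 against 3 allows). The deeper libraries thus held reads of fewer subunits. When every library was thinned to the 470804 reads of WT1, the expected numbers were 91.0, 94.9, 78.3 and 89.0 in WT and 34.3, 18.4 and 40.2 in dyW, a difference of 57.3. Over the whole table the genes with a read numbered 25530 to 29594 in WT and 14209 to 19360 in dyW. Of the 102 subunits, 20 had no read in any dyW library, and 34 had at most 3 reads in each. Among the 97 tested subunits these shares were 19.6% and 32.0%, against 17.5% and 22.6% of all tested genes.

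**Figure D5:**
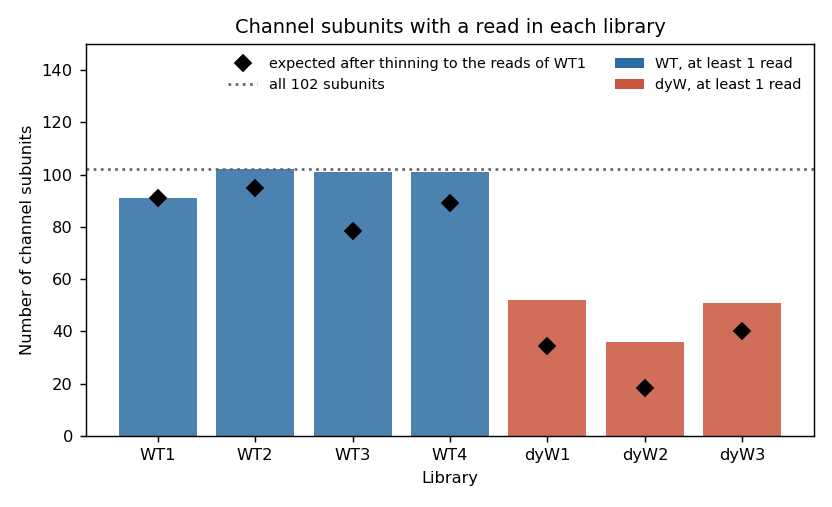
Number of the 102 channel subunits with at least 1 read in each library (bars, blue WT, red dyW) and the number expected after thinning to the reads of WT1 (diamonds). The WT bars stand at 91 to 102 and the dyW bars at 36 to 52, and the order of the groups is the same after thinning.

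The proteins that work with these channels were described from lists of partner and coupling genes. Of 22 tested partner proteins 4 were called lower (18.2%, near the 18.7% of all tested genes), with a median log2 fold change of -2.79: Abcc8, the sulfonylurea receptor SUR1, Kcnab3 and Kcnmb3, potassium channel beta subunits, and Lrrc38, a subunit of large-conductance channels. Abcc8 was at 58.6, 89.0, 18.5 and 97.5 normalized counts in WT and had 1 read in dyW2 as its only dyW read. Abcc9, the sulfonylurea receptor SUR2 that pairs with Kcnj11 in muscle and with Kcnj8 in vessels, was at 85.3, 89.0, 59.5 and 113 in WT and at 51.9, 123 and 50.3 in dyW (log2 fold change -0.30, limma adjusted P = 0.73). Thus the groups overlapped for Abcc9, while Kcnj11 and Kcnj8 each had reads in 1 dyW library only.

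Of 20 genes for excitation and its coupling to contraction, 3 (15%, against 18.7% of all tested genes) were called lower: Cacna1s and Cacng1, the pore and gamma subunits of the muscle calcium channel, and Chrng, the fetal acetylcholine receptor subunit. Cacna1s was at 5.33, 32.4, 14.4 and 25.2 in WT and had no read in dyW, and was at least 27.1-fold lower by the counting bound (57.5-fold without the library labelled dyW3), from a WT level 0.455 times the receptor level. Ryr1, the release channel of the sarcoplasmic reticulum, was at 171, 129, 77.9 and 192 in WT and at 0.0974, 87.0 and 28.8 in dyW (log2 fold change -3.26, limma adjusted P = 0.0928). The list's median log2 fold change of -2.05 was close to that of all tested genes.

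The marker lists are read against the 18.7% of all tested genes called lower, and at an adjusted P under 0.05 the 29.6% lower and 1.0% higher. None of the 10 myofiber markers was called by limma (median log2 fold change -2.30, with 0 at an adjusted P under 0.05), and all 10 overlapped between the groups, where 31.5% of all tested genes had every dyW library below WT. Their median was 0.21 without dyW1, with 6 of 10 positive, -3.32 without dyW2 and -3.43 without the library labelled dyW3. None of the Schwann cell (6 tested), smooth muscle and pericyte (5), endothelium (6), immune (5) and fibroblast (6) markers was called, with medians of -2.69, -2.0, 0.62, -2.36 and 1.503. At an adjusted P under 0.05, 2 fibroblast markers were higher, and 2 smooth muscle and pericyte markers and 1 Schwann cell marker were lower. The endothelium median was 0.23 without dyW1 and 1.14 without the library labelled dyW3, and the immune median was -1.21 without dyW2. Of the 3 cardiomyocyte markers present, Myh6 was called lower, and their median was -4.23. Schwann cell markers summed to 208 to 400 normalized counts in WT and to 7.41, 818 and 187 in dyW, smooth muscle and pericyte markers to 181 to 356 and to 180, 696 and 88.9, and endothelium markers to 441 to 566 and to 1343, 694 and 580. The part of these cells in the channel values was not tested.

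The tested genes whose log2(normalized count + 1) was most like that of the muscle channels over the 7 libraries were Prdm16, Gm43532 and Kcnq3 for Scn4a (Pearson 0.997, 0.995 and 0.995). For Clcn1 they were Gm38069, Cyp2d10 and Gm31374, all at 0.999, and for Kcnj2 Msantd1, C1qtnf1 and Wscd2, at 0.997, 0.996 and 0.996. For Clcn1, 2391 genes had a correlation over 0.95, so that its pattern of 4 filled and 3 nearly empty libraries is shared widely. These values are descriptions over 7 libraries that share their depth and scaling.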

How the data were processed

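RNA was sequenced from muscle fibers of 4 WT and 3 dyW fetuses with SMART-seq2 and Nextera XT libraries on an Illumina NextSeq instrument. The authors used Cutadapt for trimming, RNA STAR for alignment to GRCm39 and FeatureCounts for counting unique alignments per gene, and deposited the counts after division by DESeq2 size factors. Tool versions, annotation release and strand setting are not given in the sources used here. Groups came from the genotype in the sample titles. The table that the authors deposited of their own comparison holds fold changes and P values and was not used.

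In each library 100% of the values were whole multiples of a single value (tolerance 0.1), which gave the reads. Coordinates and exon lengths came from GENCODE mouse release 39, which matched 99.2% of the genes. Values went to limma 3.58.1 (R 4.3.3) as log2(normalized count + 1) for genes averaging at least 5, with moderated variances that follow the mean (lmFit and eBayes with its trend option), no covariate and Benjamini-Hochberg adjustment. For single values, permutation tests were exact and two-sided, with 0.0571 as the smallest P. A count of 0 was taken to allow 3 reads. The model was first tested on simulated data. Python 3.11.15 with scipy 1.17.1, pandas 2.3.3, matplotlib 3.10.9 and numpy 2.4.6 gave correlations, lists and figures. The members and lists were chosen with earlier results of these data known, so the lists were only counted and no list was tested.

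Genes named are the muscle channel lists, Clcn3 to Clcn7, the 8 most negative called members, the 8 most positive members, the 10 highest in WT per kb, the highest of each family, Kcnq1ot1, Kcnip3 and Kcnj12, called genes of the other lists, and Cacna1s, Ryr1 and Abcc9. Some genes that this rule takes in are not reported here. Kcna2, Scn9a, Kcna5, Kcnj15, Kcnk5, Kcnk6, Kcnq1, Kcng2, Kcng3, Kcnj13 and the markers given with values were picked for the text with their values in view. The fit was repeated with a pseudocount of 0.1 or 10, with no filter or a mean of at least 50, after quantile normalization, after scaling every library to the same total, with a replicate block, without each library and after subtraction of the receptor level. Looser cut-offs, an adjusted P under 0.05 or a log2 fold change over 1, were applied too. After seeing the data, a voom fit of the recovered reads was added.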

Additional observations from a re-analysis of the deposited data

Results flagged for a closer look

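In 3 of 37 groups of 4 WT values, 1 library stood apart from the other 3 by Dixon's test, which chance alone does in about 1 in 20 groups. WT2 held 16.2 normalized counts of Kcnc4, from 6 reads, where the others held 5.33 to 6.29. WT2 also held 43.1 normalized counts of Kcnn3, from 16 reads, against 21.3 to 24.6 in the others. The number of subunits with a read was 91 in WT1, the library with the fewest reads, and 101 to 102 in the other WT libraries.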

How the results depend on the processing

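The 33 members called lower became 0 with a pseudocount of 10, a mean of at least 50, quantile normalization, the same total, the replicate block or subtraction of the receptor level. In each of these settings at most 0.00775% of all tested genes were called lower. At an adjusted P under 0.05 the members lower were 51, against 29.6% of all tested genes. With each library left out the count ranged from 0 (without WT2, WT4 or dyW2) to 48 (without the library labelled dyW3). The number called higher by limma was 0 in every setting run. The median log2 fold change of the members relative to all tested genes, -1.29, was -2.11 with a pseudocount of 0.1, -0.48 with 10, -0.28 after receptor subtraction and -2.31 with voom, and -1.43 to -0.88 with each library left out. The difference in subunits detected, 52.4, was 63.8 and 65.4 at a normalized count of at least 1 and 10 and 47.3 to 55.3 with each library left out. The log2 fold change of Lama2 was 0.97 after receptor subtraction and -4.09 to -1.72 with each library left out. The cause of these changes was not tested. With a mean of at least 50, 12 members remain to be tested.

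The 9 called members of the naming rule that are reported here lost the call with a pseudocount of 10, quantile normalization, the same total, the block, receptor subtraction and without WT2, WT4 or dyW2. Counting these 8, Kcna7 lost it in 9 of 15 alternatives, Kcnip3 in 12 of 15, Kcnq5 in 13 of 15 and Scn2b in 14 of 16. Kcnq1, which was picked outside that rule and was also called, lost its call in 8 of 14 alternatives. Replicate numbers only name samples: deviations of same-numbered WT and dyW libraries correlated at 0.147, -0.049 and -0.088, and 2 of the 3 dyW libraries correlated best with another number. Under the replicate block 0 members were called, where 0.00388% of all tested genes were called lower. Among members of the naming rule the signs that changed under it were Kcne1l (-0.12) and Kcnip4 (0.35). Other log2 fold changes of members that the naming rule takes in with a changed sign were Kcne1l at -0.87 and Kcnip4 at 0.31 with a pseudocount of 0.1, Kcnip4 and Kcnq1ot1 at 0.93 with the same total, and Kcne3 at 0.65, Kcne1l at -1.21, Kcnip4 at 1.57 and Kcnq1ot1 at 1.17 with voom. After quantile normalization, where 13 of the 98 tested members changed sign, those of the rule were Kcne3 at 1.29, Clcn3 at -0.19, Clcn4 at -0.22 and Kcnip4 at 1.99. After receptor subtraction, where 41 changed sign, those of the rule were Kcnj2 at 0.26, Kcnj11 at 0.32, Kcnc1 at 0.34, Kcne3 at 2.64, Kcnn3 at 1.52, Kcnma1 at 4.35, Kcnq5 at 0.10, Clcn6 at 0.94, Kcnip4 at 2.24, Kcnq1ot1 at 0.98 and Scn3a at 0.61, none of them called. With each library left out, the sign changed within the ranges -2.58 to 0.13 for Kcne3, -2.77 to 0.77 for Kcnma1, -0.44 to 0.90 for Clcn3, -0.33 to 1.39 for Clcn4, -0.35 to 0.84 for Scn3b, -0.90 to 2.03 for Kcne1l, -1.01 to 0.996 for Kcnip4 and -0.54 to 0.19 for Kcnq1ot1. The planned edgeR and DESeq2 fits on recovered reads were not run, and voom took their place. In the WT libraries 1 read is worth 2.05 to 5.33 normalized counts, so WT levels of single subunits rest on few reads.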
